A study of Panicum virgatum with 54 samples.

Results

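Switchgrass leaves under drought with added heat (called combined stress here) were compared with leaves of untreated control plants at 120 and 144 h. The comparison holds 12 of the 54 libraries of the series, picked by treatment and time in their titles. The combined arm has 3 libraries at 120 h, after 48 h of heat, and 3 at 144 h, after 72 h of heat. The control arm has 3 libraries at each of the same times, without drought or heat. Plants under drought without heat, with 3 libraries at each of these times, are used only to give levels beside the comparison. All plants were ramets of genotype AP13, a selection from the lowland cultivar Alamo, grown in pots and sampled as leaf at the developmental stage labelled E3. Ramets are clonal offshoots, and the labels give AP13 for every library. Per the labels' protocols, combined plants stood in a chamber of their own, and control plants shared a chamber with plants under drought alone. Chamber and treatment therefore cannot be told apart in these 12 libraries. Nothing in the labels ties the 3 libraries of a group to separate plants. The p-values therefore measure only how far these libraries spread, and whether that spread is one between plants was not tested.

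Switchgrass is a perennial grass with C4 photosynthesis, native to North America and grown for forage and biomass. Under drought, leaves close their stomata, and a leaf with closed stomata loses less heat by transpiration. In plants in general, drought raises transcripts controlled by abscisic acid and heat raises transcripts of chaperones. The deposited table holds identifiers of the Pavir v4.1 form without gene names, and of its 32190 identifiers 0 matched the 74976 genes of the RefSeq table for assembly P.virgatum_v5. Genes are therefore given by identifier, with the chromosome that the identifier codes (K and N mark the subgenomes of this polyploid, J sequence on no chromosome). No function is given for any of them, and the leaf label could not be checked against marker genes.

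The libraries held 22.3 to 48.4 M counts each, with M for mega. The 12 libraries did not form 2 tight groups. The first principal component, with 39.1% of the variance, set 3 combined libraries (120 h replicate 2, 144 h replicates 1 and 2) apart from the other 3 combined libraries and from all 6 controls. Those 3 combined libraries lacked a set of 424 genes that was found among the untreated 0 h libraries of the series. The median level of its genes in them was at most 0.0108 of the mean in 7 libraries at 0 h, against 0.903 to 1.095 in the other 9 libraries. In the whole series 12 of 54 libraries lacked the set, among them combined replicate 2 at all 6 times, and 0 of the 18 controls (0.863 to 1.195). The set was chosen as genes low in drought 0 h replicate 1 and combined 0 h replicate 2 against the other 7 libraries at 0 h. Its levels at 0 h are therefore fixed by the choice, in the 0 h controls too. Libraries of the later times had no part in the choice, and the reason for the low levels was not tested. Its 423 tested genes had a median log2 fold change of -1.17 of combined over control with all 12 libraries, yet edgeR called 0 of them, where 3.19% of all genes were called. In the fit without control 144 h replicate 2, 4 were called lower, where 7.04% of all genes were. Control 144 h replicate 2 lay at one end of the second component (18.5% of the variance), and the other 5 controls all lay on the opposite side of 0. Results are given with and without these libraries.

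Combined stress was set against control with time as a block, to ask which leaf transcripts differ once drought and heat have acted together for 48 to 72 h. With all 12 libraries, combined plants had 513 genes higher (1.61%) and 505 lower (1.58%) than control plants (edgeR quasi-likelihood test, Benjamini-Hochberg adjusted p below 0.05), together 3.19% of the 31893 genes tested. The higher genes had a median log2 fold change of 1.17, and the lower genes -1.08. At least 2-fold changes were seen in 323 higher and 276 lower genes, and at least 4-fold changes in 84 and 74. Without control 144 h replicate 2, 2618 genes were higher (8.2%) and 2246 lower (7.04%), together 15.2% of 31924 tested, with 399 and 217 of them at least 4-fold. All 513 higher and all 505 lower genes of the first fit were called again in the second, in the same direction. They form 19.6% of the higher and 22.5% of the lower genes called there. The 2 fits share 11 libraries, so this is no independent check. When the 3 combined libraries without the 424 genes were left out as well, 1618 genes were higher (5.07%) and 1823 lower (5.71%), together 10.8% of 31919 tested. Of these, 1341 higher genes (82.9%) and 1237 lower genes (67.9%) were among the 2618 and 2246.

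The arms can also be compared by overlap of their levels. Of the 31893 tested genes, 602 (1.89%) stood higher in all 6 combined libraries than in any of the 6 controls and 495 (1.55%) stood lower in all 6 than in any control, together 3.44%. Against the 5 controls other than 144 h replicate 2, the 6 combined libraries lay above for 1705 genes (5.35%) and below for 1385 (4.34%), together 9.69%. Of the genes called with all 12 libraries, 314 of the 513 higher (61.2%) and 256 of the 505 lower (50.7%) were among the 602 and 495. No gene was switched fully between the arms: 0 genes had at least 1 CPM (counts scaled by library size) in all 6 libraries of one arm and below 0.1 CPM in all 6 of the other, in either direction. Without control 144 h replicate 2, 1 gene met that limit for combined plants, Pavir.8NG205700.v4.1 on 8N, singled out here by this count after its values were seen.

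The count of genes called rested on single libraries. The number fell to 42 without combined 120 h replicate 1 and to 150 without replicate 2 of that group. It was 205, 476 and 483 without combined 144 h replicates 1, 2 and 3. Among the controls, it was 14, 51 and 59 without 120 h replicates 1, 2 and 3, and 11 without 144 h replicate 1. Without combined 120 h replicate 3 or control 144 h replicate 3, 1061 and 869 genes were called. The number of genes at an unadjusted p below 0.05 moved far less, from 6723 to 10536, with 8395 (26.3% of those tested) in the full set.

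**Figure D1:**
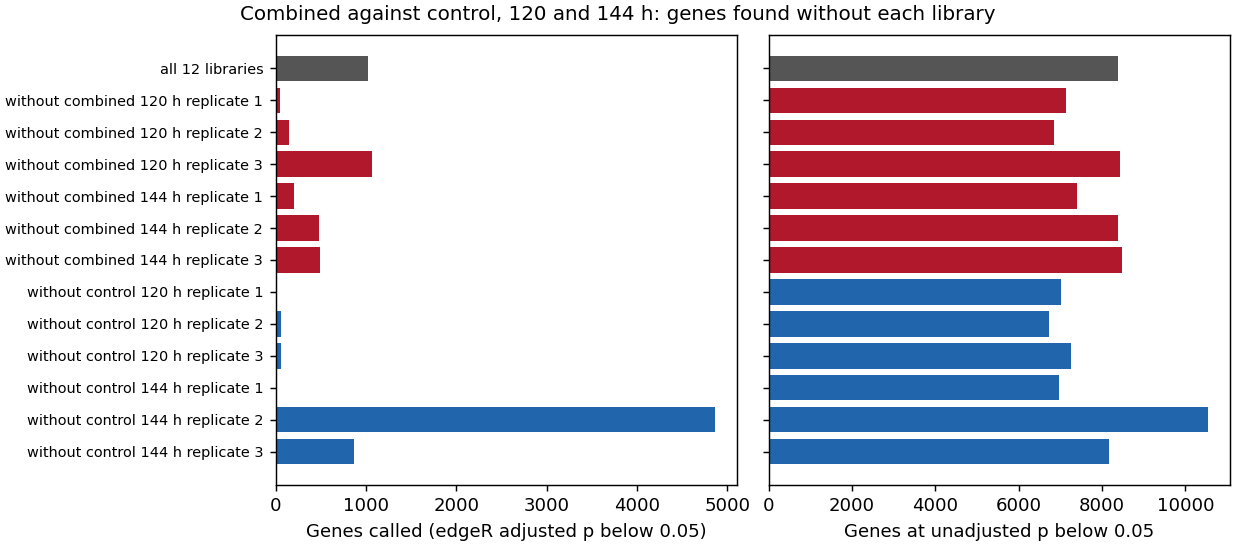
Genes found in combined against control at 120 and 144 h, with all 12 libraries (grey) and without each library in turn (red, combined libraries; blue, control libraries). The left panel counts genes called by edgeR at an adjusted p below 0.05, from 11 to 4864, and the right panel genes at an unadjusted p below 0.05, from 6723 to 10536. Both counts are highest without control 144 h replicate 2.

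Control 144 h replicate 2 lay near the combined libraries in the genes called without it. These 4864 genes were used to place each library on a scale where the mean of the other 5 controls at 120 and 144 h is 0 and the mean of the 6 combined libraries is 1. Control 144 h replicate 2, which had no part in choosing the genes, lay at 0.864. In 3477 of the 4864 genes (71.5%) its log2 level was nearer to the combined mean than to the mean of the 5 controls. In 3563 genes (73.3%) it lay beyond all 5 controls on the combined side, and in 1854 (38.1%) it lay past the combined mean itself. When each of the 12 libraries was left out and placed by the 200 higher and 200 lower genes with the smallest p in the other 11, the combined libraries lay between 0.631 and 0.976. Placed so, control 144 h replicate 2 lay at 0.921, control 144 h replicate 3 at 0.364 and the other 4 controls between -0.0765 and 0.0733. Each library had genes and end points of its own here, so these values do not share a scale. Control 144 h replicate 2 entered the genes and the control end for every library but itself. On the first scale, whose genes it helped choose, control 144 h replicate 3 lay at -0.0148. The reason for the place of that library was not tested.

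**Figure D2:**
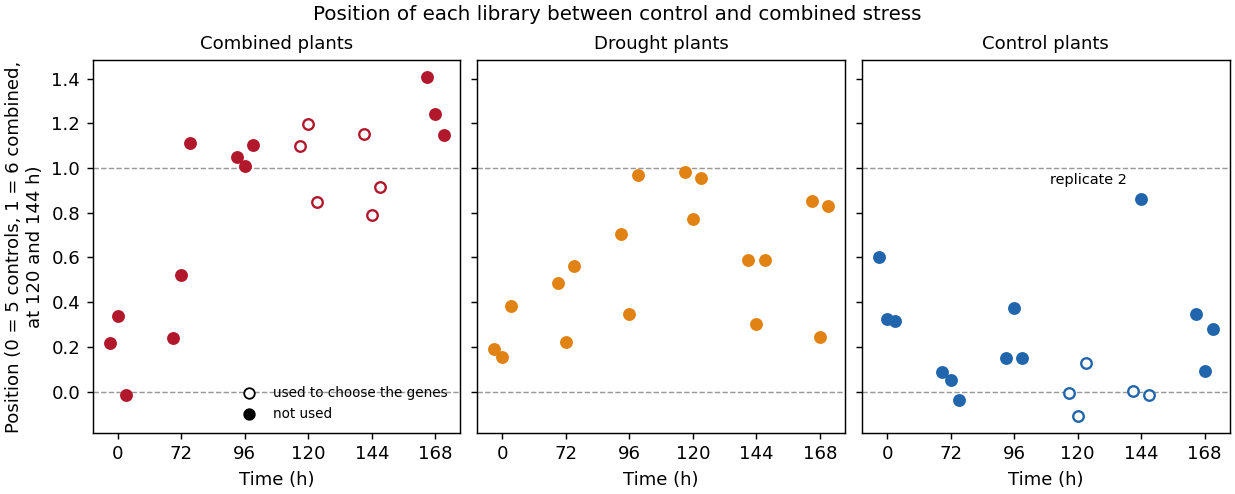
Position of every library of the series, by time in hours, on the scale on which the 5 other controls at 120 and 144 h average 0 and the 6 combined libraries average 1 (dashed lines). Each point is 1 library; open points are the 11 libraries that chose the 4864 genes, and filled points had no part in the choice. Control 144 h replicate 2 lies at 0.864, among the stressed libraries.

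The same scale places the other libraries. Combined plants lay at 1.009 to 1.105 at 96 h and between 1.147 and 1.407 at 168 h. The 6 combined libraries of these times thus stood at or beyond the combined end of the comparison. Titles of the 168 h libraries give no hours of heat. At 72 h, before any heat per the titles, the 3 combined libraries spread from 0.242 over 0.520 to 1.113. Drought plants lay at 0.770, 0.957 and 0.980 for 120 h, and 0.302, 0.587 and 0.587 for 144 h. Drought and combined libraries overlapped at 120 h, where combined plants lay at 0.849 to 1.197, and did not overlap at 144 h, where combined plants lay at 0.788 to 1.151. The combined libraries at 120 and 144 h helped choose the genes and set the scale, and the drought libraries did neither. Their distance from drought libraries is thus fixed in part by that choice. Control plants lay at -0.0382 to 0.0902 at 72 h, 0.150 to 0.376 at 96 h, 0.0932 to 0.348 at 168 h and 0.318 to 0.5999 at 0 h. Control leaves at 0 h were thus further along the scale than control leaves at 72 h.

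Only 4 genes were called in the same direction with all 12 libraries, without control 144 h replicate 2 and without the 3 combined libraries that lack the 424 genes. That last fit kept 3 combined and 6 control libraries and called these 4 genes alone (0.0125% of those tested, with 0.00626% in each direction), and 6288 had an unadjusted p below 0.05. They are Pavir.9NG799200.v4.1 and Pavir.9KG545000.v4.1, which rose, and Pavir.4KG077400.v4.1 and Pavir.9KG601100.v4.1, which fell. The first follows the rule for named genes, which asks for a mean of at least 20 CPM. The other 3 lie under that mean and were named after their values were seen, because the count is so small.

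Pavir.9NG799200.v4.1 on 9N stood at 28.5, 17.5 and 44.7 CPM in combined plants at 120 h, and 139.0, 147.6 and 53.1 CPM at 144 h. Control plants were at 3.30, 4.71 and 2.41 CPM at 120 h, and 4.28, 6.19 and 2.76 CPM at 144 h. The arms did not overlap, and the highest levels were combined 144 h replicates 1 and 2. Combined plants averaged 71.7 ± 56.9 CPM and controls 3.94 ± 1.41 CPM (SD, n = 6 each). The log2 fold change was 3.89 ± 0.44 (SE; edgeR adjusted p = 0.0172). The mean under drought alone was 55.7 ± 62.6 CPM (SD, n = 6, of which 3 also lacked the 424 genes), and combined and drought plants did not differ past the threshold (log2 0.07 ± 0.73, edgeR adjusted p = 0.974). In untreated leaves at 0 h, this gene averaged 7.35 CPM in the combined arm, 12.9 CPM in the drought arm and 53.2 CPM in the control arm, a difference that was not tested.

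Pavir.9KG545000.v4.1 on 9K stood at 16.0, 8.88 and 15.7 CPM in combined plants at 120 h and at 13.8, 6.71 and 12.4 CPM at 144 h. In control plants it stood at 1.57, 2.32 and 2.39 CPM at 120 h and at 2.25, 3.86 and 3.08 CPM at 144 h. All combined libraries were above all controls, control 144 h replicate 2 included. The log2 fold change was 2.25 ± 0.29 (SE; edgeR adjusted p = 0.0184). Combined plants had 12.2 ± 3.75 CPM and drought plants 3.31 ± 1.89 CPM (SD, n = 6 each), a log2 difference of 1.90 ± 0.37 of combined over drought (edgeR adjusted p = 0.0187), in a comparison that called 4.66% of genes. In these libraries, this gene was thus higher in combined plants than in either other treatment. The same 6 combined libraries chose the gene, so its distance from drought plants is fixed in part by that choice. At 72 h, before heat, the gene averaged 8.16 ± 8.001 CPM under combined treatment, 3.34 ± 2.45 CPM under drought alone and 2.73 ± 0.832 CPM in controls (SD, n = 3 each). The combined mean at 72 h leaned on replicate 3, with 3.61, 3.47 and 17.4 CPM in replicates 1, 2 and 3.

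Pavir.4KG077400.v4.1 on 4K was low in every combined library, at 1.40, 0.510 and 1.41 CPM at 120 h and 3.45, 1.75 and 1.71 CPM at 144 h. The controls had 16.2, 13.1 and 11.3 CPM at 120 h and 8.59, 15.2 and 10.4 CPM at 144 h. The arms were far apart at both times, with a log2 fold change of -2.96 ± 0.37 (SE; edgeR adjusted p = 0.0184). Against drought plants, which had 9.23 ± 5.87 CPM (SD, n = 6), combined plants were lower by a log2 difference of -2.50 ± 0.47 (edgeR adjusted p = 0.0173). Here too the combined libraries chose the gene, so this difference is fixed in part by that choice. At 72 h its levels were 3.35 ± 2.18 CPM in combined, 7.33 ± 0.507 CPM in drought and 8.36 ± 1.63 CPM in controls (SD, n = 3 each).

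Pavir.9KG601100.v4.1 on 9K stood at 2.75, 1.31 and 2.23 CPM in combined plants at 120 h and at 5.44, 1.44 and 1.63 CPM at 144 h. Its control levels were 12.7, 10.7 and 9.37 CPM at 120 h and 5.50, 4.94 and 5.66 CPM at 144 h. The arms overlapped through combined 144 h replicate 1, one of the 3 libraries that lack the 424 genes, which lay above control 144 h replicate 2 only. The log2 fold change was -1.66 ± 0.41 (SE; edgeR adjusted p = 0.0490), and at 96 and 168 h it was -0.48 ± 0.45 (edgeR adjusted p = 0.424). Of the 4 genes, this one alone did not pass at those other times. The other 3 passed there, at log2 2.31 ± 0.48, 2.26 ± 0.31 and -2.45 ± 0.42 (edgeR adjusted p = 0.00352, 3.4e-04 and 0.00132) for Pavir.9NG799200.v4.1, Pavir.9KG545000.v4.1 and Pavir.4KG077400.v4.1.

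Among genes that were called only without control 144 h replicate 2, the rule named 2 higher and 2 lower genes by the smallest p. Pavir.1NG255300.v4.1 on 1N stood at 30.4, 20.9 and 27.0 CPM in combined plants at 120 h and at 72.7, 29.5 and 29.2 CPM at 144 h. Its control levels were 0.933, 1.23 and 0.918 CPM at 120 h, 1.99 and 1.10 CPM in replicates 1 and 3 at 144 h, and 41.2 CPM in replicate 2. That replicate was above 5 of the 6 combined libraries. The log2 fold change was 4.71 ± 0.33 without it (SE; edgeR adjusted p = 5.6e-04) and 3.01 ± 0.95 with it (edgeR adjusted p = 0.0841). Combined plants had 34.9 ± 18.8 CPM and drought plants 29.7 ± 20.3 CPM (SD, n = 6 each), with no difference past the threshold (edgeR adjusted p = 0.782).

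Pavir.8KG344800.v4.1 on 8K had the same pattern at a higher level. Combined plants had 125.7, 49.97 and 95.4 CPM at 120 h and 170.6, 81.2 and 104.6 CPM at 144 h. Control plants had 9.07, 10.9 and 7.45 CPM at 120 h, 15.5 and 16.4 CPM in replicates 1 and 3 at 144 h, and 121.2 CPM in replicate 2. The log2 fold change was 3.11 ± 0.29 without that replicate (SE; edgeR adjusted p = 0.00200) and 2.23 ± 0.62 with it (edgeR adjusted p = 0.0648). Its mean was 104.6 ± 41.0 CPM in combined plants, against 104.1 ± 46.9 CPM in drought plants (SD, n = 6 each).

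The 2 lower genes were well expressed in every library. Pavir.1NG251800.v4.1 on 1N had 34.3, 45.4 and 39.5 CPM in combined plants at 120 h and 35.2, 54.7 and 41.0 CPM at 144 h. Control plants had 108.4, 113.8 and 84.4 CPM at 120 h and 82.5 and 123.3 CPM in replicates 1 and 3 at 144 h, against 29.2 CPM in replicate 2. The control value of replicate 2 was below all 6 combined values, and the 5 other controls were above all of them. The log2 fold change was -1.33 ± 0.17 without that replicate (SE; edgeR adjusted p = 0.00388) and -1.11 ± 0.29 with it (edgeR adjusted p = 0.0529). Pavir.J653100.v4.1, on no chromosome, averaged 53.1 ± 8.13 CPM in combined plants (SD, n = 6) and 112.3 ± 10.1 CPM in the 5 other controls (SD, n = 5), with 32.6 CPM in control 144 h replicate 2. All 6 combined libraries lay between that replicate and the other controls. Its log2 fold change was -1.11 ± 0.15 without that replicate (SE; edgeR adjusted p = 0.00401) and -0.89 ± 0.27 with it (edgeR adjusted p = 0.0771). At 96 and 168 h, in other libraries, Pavir.1NG255300.v4.1, Pavir.8KG344800.v4.1 and Pavir.J653100.v4.1 passed (log2 3.35 ± 0.67, 2.59 ± 0.53 and -1.24 ± 0.26; edgeR adjusted p = 0.00290, 0.00341 and 0.00355), and Pavir.1NG251800.v4.1 did not (log2 -0.76 ± 0.32, edgeR adjusted p = 0.0812).

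**Figure D3:**
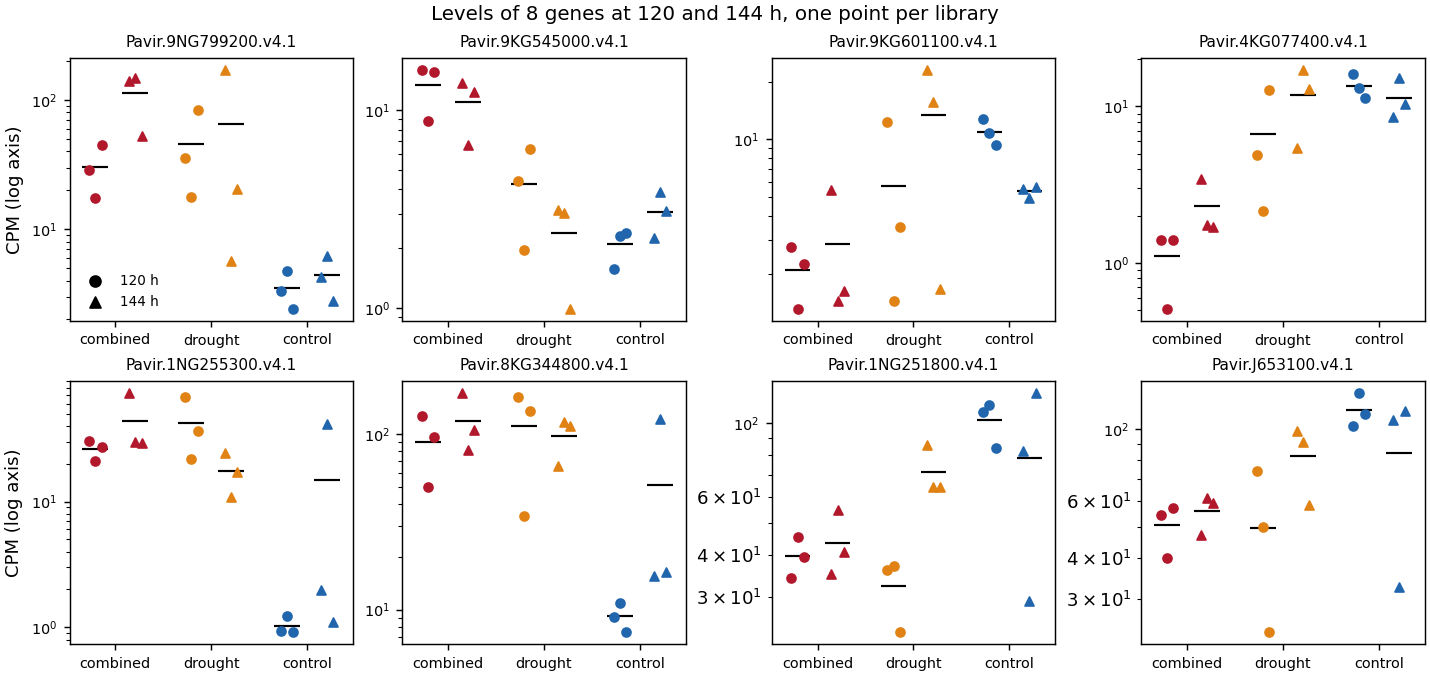
Levels of the 8 named genes in CPM on a log axis at 120 h (circles) and 144 h (triangles), by treatment, with 1 point per library and a black line at the mean of the 3 libraries of a group. In the upper row, the combined and control arms stand apart in 3 genes and touch in Pavir.9KG601100.v4.1, with control 144 h replicate 2 near the other controls. In the lower row, that replicate (the lone control triangle) stands with the combined libraries.

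The time of sampling was examined next, since combined plants had 48 h of heat at 120 h and 72 h of heat at 144 h. In the fit of 4 group means to all 12 libraries, edgeR called 0 genes at 120 h and 0 at 144 h, although the unadjusted p was below 0.05 for 7827 and 4737 genes. DESeq2 called 4543 and 1707 genes in the same libraries, and limma 0 at both times. Without control 144 h replicate 2, edgeR called 1134 genes higher and 1034 lower at 120 h (6.79% of those tested), and 3 higher and 5 lower at 144 h (0.0251%). The 120 h count changed although that library belongs to 144 h. The 4 groups share an estimate of the spread in this fit, and its part in the change was not tested. A direct test of how the difference changed between 120 and 144 h called 0 genes with edgeR (3470 at an unadjusted p below 0.05), 293 with DESeq2 and 0 with limma. Without control 144 h replicate 2, edgeR gave 0 again (2993 at an unadjusted p below 0.05) and DESeq2 149.

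Fold changes at the 2 times had the same sign in all 2618 higher and all 2246 lower genes called without control 144 h replicate 2. The higher genes had a median log2 fold change of 1.17 at 120 h and 1.04 at 144 h, and the lower genes -1.05 and -0.87. These signs and medians are fixed in part by the choice of the genes on the same libraries. Over all genes, without choice, the log2 fold changes at 120 and 144 h correlated at 0.433 with all 12 libraries and at 0.534 without that replicate (Pearson, across 31893 and 31924 genes, which are not independent replicates). The 2 times share no library.

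Calls in the 2 directions fell at different levels of expression. When the tested genes were ranked by mean CPM over the 12 libraries and divided into 5 bins of equal size, 10.6% of the second bin (3.62 to 7.74 CPM) were higher in combined plants and 4.04% were lower, in the fit without control 144 h replicate 2. In the highest bin (31.0 CPM and above), 5.2% were higher and 14.1% lower, against 8.2% and 7.04% over all genes. Calls in the fit of all 12 libraries had a like shift, with 1.72% higher and 1.03% lower in the second bin and 1.38% and 2.21% in the highest. The median log2 fold change ran the same way, at 0.11 in the second bin and -0.16 in the highest without that replicate, and at 0.08 and -0.12 with it. The values are relative to the counts of each library, after scaling by the trimmed mean of M values. Any part of the scaling in this pattern was not tested.

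**Figure D4:**
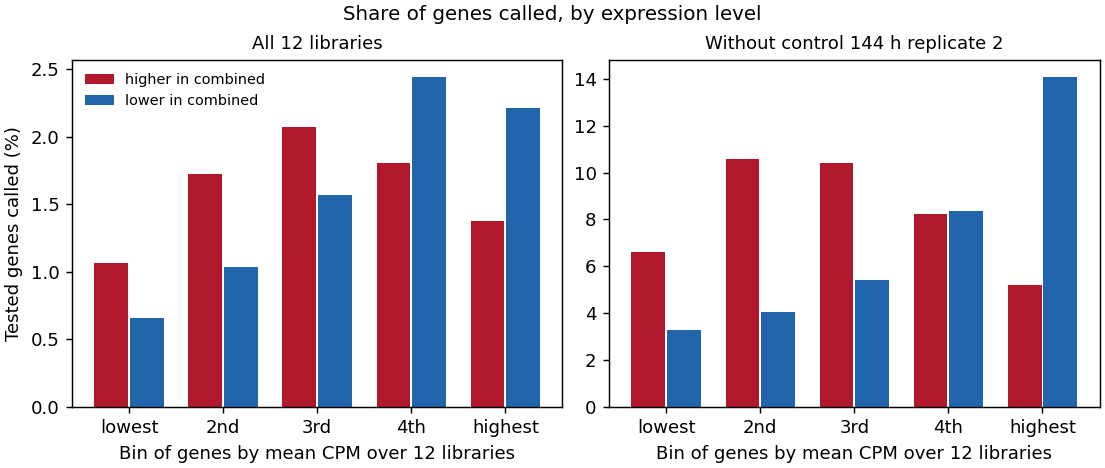
Percent of tested genes called higher (red) or lower (blue) in combined plants, by bin of genes ranked on mean CPM over the 12 libraries, with all 12 libraries (left) and without control 144 h replicate 2 (right, on an axis of its own). Lower calls are most frequent in the upper bins, reaching 14.1% in the highest bin on the right, and higher calls in the middle of the range.

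The 100 most abundant genes of the 12 libraries, with means of 929.6 CPM and above, mostly had lower values in combined plants. With all 12 libraries 82 of the 100 had a negative log2 fold change (median -0.31, against 0.00 over all genes), with 1 called higher and 0 lower (1.61% and 1.58% over all genes). Without control 144 h replicate 2, 88 were negative (median -0.50, against 0.01 over all genes), with 2 called higher and 21 lower (8.2% and 7.04% over all genes). They took 16.8%, 18.99% and 18.2% of all counts in combined plants at 120 h and 15.7%, 25.1% and 19.8% at 144 h. In control plants they took 23.99%, 22.4% and 22.5% at 120 h and 21.1%, 12.4% and 26.0% at 144 h, where 12.4% is replicate 2. The arms overlapped in this share, through combined 144 h replicate 2 on one side and control 144 h replicate 2 on the other. At 96 and 168 h, in other libraries, 37 of the same 100 genes were called lower and 3 higher, where 14.1% of all genes were called lower and 21.9% higher.

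Combined and control libraries at 96 and 168 h, which have no part in the choice of the genes, gave the same measure in other libraries. There, combined plants had 6975 genes higher and 4494 lower, 35.9% of 31915 tested. Of the 513 genes higher at 120 and 144 h with all 12 libraries, 505 (98.4%) were also higher at 96 and 168 h and 426 (83.0%) were called higher, where 54.1% of all tested genes were higher and 21.9% were called. Of the 505 lower genes, 502 could be tested, 500 (99.6%) were lower and 418 (83.3%) called lower, against 14.1% of all genes called lower. Of the 2618 higher genes found without control 144 h replicate 2, 2206 (84.3%) were called higher and 0 lower. Of the 2242 lower genes tested, 1724 (76.9%) were called lower and 1 higher. The libraries are separate, but the labels do not say whether they come from the same plants, and at 96 and 168 h, too, 3 of the 6 combined libraries and 0 controls lacked the 424 genes. Without those 3 libraries, combined plants had 4934 genes higher (15.5%) and 4005 lower (12.5%) at 96 and 168 h. Of the 513 and 505 genes, 350 (68.5% of 511 tested) and 348 (68.9%) were then called in the same direction and 0 in the opposite one. With the 424-gene libraries left out at all 4 times and control 144 h replicate 2 as well, 1256 of 1618 higher genes (77.6%) and 1301 of 1822 lower genes (71.4%) were called in the same direction.

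**Figure D5:**
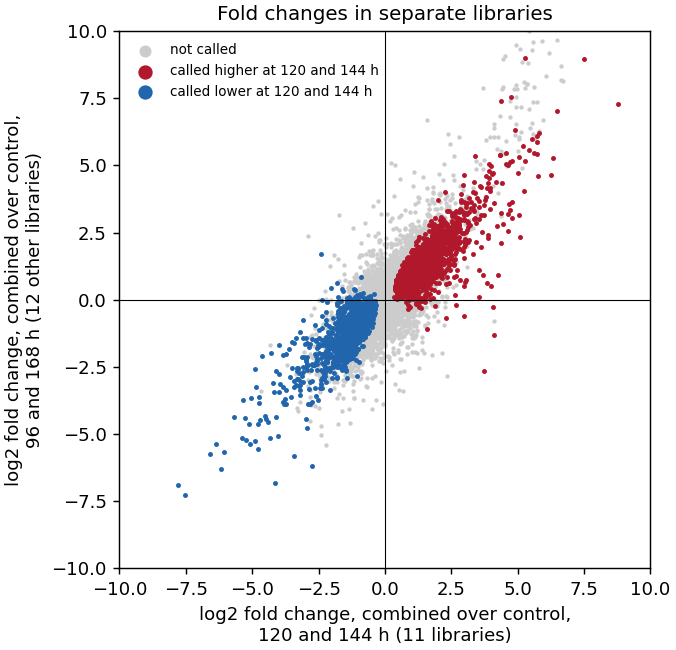
Log2 fold change of combined over control at 120 and 144 h without control 144 h replicate 2 (x axis, 11 libraries) and at 96 and 168 h (y axis, 12 other libraries), 1 point per gene. Genes called higher (red) and lower (blue) at 120 and 144 h fall at the upper right and the lower left with few exceptions; 5 of 31864 genes lie beyond the axes.

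The difference was followed before heat, in group means of a fit to all 54 libraries. At 72 h, before heat, the 513 higher genes already stood at a median log2 difference of 0.77 between combined and control plants (0.03 over all genes), with 91.6% of them positive against 53.0% of all genes. The 505 lower genes stood at -0.45, with 86.5% negative against 47.0% of all genes. These are group means, and the combined libraries at 72 h were unlike each other. On the position scale above, replicates 1, 2 and 3 lay at 0.242, 0.520 and 1.113, so the 72 h medians may lean on replicate 3. For the higher genes, the medians at 96, 120, 144 and 168 h were 1.10, 1.296, 1.07 and 1.07. For the lower genes, they were -0.96, -1.08, -1.04 and -0.96. The values for 120 and 144 h come from the libraries that chose the genes. At 0 h, before any treatment, the higher genes stood at -0.08 with 45.4% positive and the lower genes at 0.16 with 37.0% negative. For the 2618 and 2246 genes found without control 144 h replicate 2, the 0 h medians were -0.26 and 0.30, with 36.1% and 29.6% on the same side as later. Of the 513 higher genes, 40 (7.80%) were called higher at 0 h and 54 (10.5%) lower, where 5.46% of all genes were called higher and 7.44% lower. Of the 505 lower genes, 16 (3.17%) were called lower and 13 (2.57%) higher, against the same 7.44% and 5.46%. Genes of both lists were thus called in both directions at 0 h, as were genes at large. Whether their shares differ from those over all genes was not tested. In that fit the arms differed at 0 h by 4131 called genes (12.9%), and at 72 h by 510 (1.59%).

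Called genes were spread over all chromosomes. Without control 144 h replicate 2, the share called higher ran from 6.18% on 8K to 9.16% on 4N, and the share called lower from 6.12% on 8N to 8.26% on 3N. The K subgenome had 8.07% higher and 7.07% lower, the N subgenome 8.43% and 7.09%, and unplaced identifiers 7.21% and 6.17%. Copies of a gene on K and N, or side by side, can be nearly identical, and overlapping genes can share reads, so single values of such genes are uncertain.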

How the data were processed

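Leaf RNA was sequenced in 54 libraries, and titles that read 94 h were taken as 96 h, as in the series design. Per the labels' protocols, a stranded mRNA kit was used, and the submitters' processing notes name TopHat, Cufflinks and HTSeq. The versions and roles of these tools, the build, the gene models and the strand option in counting are not given in the sources here. The authors deposited raw read counts, whole numbers for each gene, without normalization.

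Tests used edgeR 4.0.16 under R 4.3.3, with the default expression filter (minimum count 10, minimum total 15), scaling by the trimmed mean of M values and robust quasi-likelihood fits. The main model had treatment and time as terms for the 12 libraries, and single times and their change came from 4 group means. SE is the log2 fold change divided by the root of F. Levels are CPM scaled over all 54 libraries, and log2 CPM used a prior count of 2. The common biological coefficient of variation was 0.445, and 0.416 without control 144 h replicate 2. Replicates of a group differed by 28.8 times the sampling variance or more, so none was a copy of another. In simulated counts of 31876 genes, 200 of them (at least 5 CPM) were changed. The main comparison recovered 25% of the 2-fold and 92% of the 4-fold changes, and 120 h alone recovered 3% and 60%.

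The 424 genes have a mean of at least 2 CPM in 7 libraries at 0 h and, in drought 0 h replicate 1 and combined 0 h replicate 2, under 10% of the lowest of those 7. The rule for named genes asks for a mean of at least 20 CPM. In the main comparison it takes the 2 with the largest positive and the 2 with the largest negative fold change called in 3 fits. Only Pavir.9NG799200.v4.1 met it there, and the other 3 genes called in those fits lie under 20 CPM and were named after their values were seen. For control 144 h replicate 2 the rule takes the 2 higher and 2 lower genes with the smallest p called only without that library. For the change between times none was called, so none is named. Alternatives were DESeq2 1.42.0, limma 3.58.1, other scaling, no filter, all 54 libraries, a replicate block, correlated libraries and libraries left out. The comparison, lists and alternatives were chosen with earlier results of these data known. The comparison with drought plants, the left-out placing and the alternatives at 96 and 168 h, among them the fit without libraries that lack the 424 genes, were added after these data were seen.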

Additional observations from a re-analysis of the deposited data

Results flagged for a closer look

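In each arm of 6 libraries, the highest or lowest library was compared with the rest of its arm for the 8 named genes, the share of counts in the 100 most abundant genes and the left-out position. Of the 20 sets checked, 6 had a library far from the others. The cutoff flags about 1 in 20 sets only where the values are independent and come from 1 group. The sets here pool both times and share libraries, so their count cannot be set against chance. Control 144 h replicate 2 stood apart in 4 of them. It had 41.2 CPM of Pavir.1NG255300.v4.1, 121.2 CPM of Pavir.8KG344800.v4.1 and 32.6 CPM of Pavir.J653100.v4.1, and 12.4% of its counts in the 100 most abundant genes. The first 3 genes were named for their dependence on this library, so their distance is built in. Combined 144 h replicate 1 stood apart in the other 2, with 72.7 CPM of Pavir.1NG255300.v4.1 and 5.44 CPM of Pavir.9KG601100.v4.1, both the highest of the combined arm.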

How the results depend on the processing

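The numbers of genes higher and lower in combined plants at 120 and 144 h (513 and 505) were within 1.5 times of these values with limma, with DESeq2 size factors and with no filter. They were 2716 and 2554 with DESeq2, 4202 and 3809 with DESeq2 without control 144 h replicate 2, and 3174 and 2263 in the fit of all 54 libraries. With libraries of the same number correlated in limma they were 877 and 836. They were 2 and 2 without the 3 combined libraries that lack the 424 genes (6288 genes at an unadjusted p below 0.05), and 1618 and 1823 without these and control 144 h replicate 2. At 120 h (0 and 0) the numbers were 2420 and 2123 with DESeq2, 3147 and 2849 with DESeq2 without that control, 2274 and 1350 with all 54 libraries, and 133 and 127 without all 4 libraries. At 144 h (0 and 0) they were 780 and 927 with DESeq2, 1561 and 1213 with DESeq2 without that control, and 101 and 95 with all 54 libraries. For the change between times (0 and 0) they were 143 and 150 with DESeq2, and 55 and 94 with DESeq2 without that control. The cause of these shifts was not tested. Leaving out 1 library at a time gave 3 to 2618 higher and 8 to 2246 lower genes in the main comparison, 0 to 1134 and 0 to 1034 at 120 h, 0 to 58 and 0 to 29 at 144 h, and 0 to 1 in each direction for the change. At 120 h, calls came without control 144 h replicate 2, without combined 120 h replicate 3 (885 and 775) and without control 144 h replicate 1 (26 and 9). At 96 and 168 h the numbers (6975 and 4494) were 4934 and 4005 without the 3 libraries there that lack the 424 genes, and the ranges were 5715 to 6710 and 3556 to 5072, and the position of control 144 h replicate 2 ranged from 0.745 to 0.962. Without that control, 1 gene was switched. With the replicate block, edgeR called 0 higher and 0 lower genes in the main comparison (6608 at an unadjusted p below 0.05), at 120 h, at 144 h and for the change. Combined and control libraries of the same number and time correlated at -0.365 to 0.209, over 0.1 in 1 of 6 pairs. Of the 12 libraries, 2 correlated best with their own number in the other arm. Whether libraries of a number share a block between the arms was not tested. Within the combined arm, libraries of the same number at 120 and 144 h correlated at -0.243, 0.562 and 0.491 (replicates 1, 2 and 3), and in controls at -0.0440, -0.0830 and 0.0547. The models treat all libraries as independent, so p-values may be too small where combined libraries of a number are linked. No named gene changed sign in any alternative, and Pavir.9KG601100.v4.1 missed the threshold in 12 of 22 alternatives (edgeR, DESeq2 or limma adjusted p up to 0.135). Pavir.9KG545000.v4.1 missed it in 2, and Pavir.9NG799200.v4.1 and Pavir.4KG077400.v4.1 in 1 each. Pavir.1NG255300.v4.1, Pavir.8KG344800.v4.1, Pavir.1NG251800.v4.1 and Pavir.J653100.v4.1 were not called in the main fit. Across alternatives their adjusted p (edgeR, DESeq2 or limma) reached 0.181, 0.143, 0.175 and 0.246. Simulated 2-fold changes were recovered at 25%, in counts where only a small part of the genes was changed. The adjusted p depends on how many genes differ, so this share cannot be carried over to the measured counts. How many 2-fold changes went uncalled in these libraries was not tested.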

Other observations

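Called genes lay beside each other in identifier number in the shares given here. In the fit without control 144 h replicate 2, the next tested identifier on the same chromosome was also called lower for 238 of 2156 lower genes (11.04%, against 7.08% of all placed genes), and also called higher for 269 of 2513 higher genes (10.7%, against 8.25%). With all 12 libraries the shares were 4.30% (21 of 488) for lower genes, against 1.60%, and 1.79% (9 of 502) for higher genes, against 1.65%. Adjacent copies of 1 gene can share reads in the counting, and their part in these shares was not tested.

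Pavir.9NG799200.v4.1 averaged 53.2 ± 57.8 CPM in control plants at 0 h (SD, n = 3), and its control means at the 5 later times were 2.98 to 5.40 CPM.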
